A study of Mus musculus with 18 samples.

Results

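AMPA receptors are the glutamate-gated ion channels that carry most fast excitatory transmission in the brain. The 9 genes described here are the 4 that encode the pore-forming subunits (Gria1, Gria2, Gria3 and Gria4) and 5 that encode auxiliary proteins of the receptor (Cacng2, Cacng3, Cacng8, Cnih2 and Cnih3). They were taken by name from a table of 43629 genes, and all 9 were found. All 9 were among the 15671 genes with enough counts to be tested, and the lowest count of any of them in any library was 1401 (Gria4).

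Transcripts of mouse cortical neuronal cultures were measured by bulk RNA sequencing, from poly(A)-selected RNA. A lentivirus was added to the cultures at 7 days in vitro and they were harvested 10 days later. The Psmb8 group overexpressed Psmb8, one of the catalytic subunits of the interferon-inducible immunoproteasome, in 6 libraries. The Psmb5 group overexpressed Psmb5, the subunit that holds the same place in the constitutive proteasome, in 6 libraries, and the mSc group overexpressed the red fluorescent protein mScarlet as the control, also in 6. The sources used here do not give the mouse strain, the age or sex of the animals, or the promoter of the constructs. The labels' treatment protocol speaks of an Ifng construct in every library, which goes against their other fields, and the groups were taken from those other fields. The comparisons ask whether raising either proteasome subunit in neurons was accompanied by a change in transcripts.

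AMPA receptors assemble from 4 subunits, which leave the endoplasmic reticulum with auxiliary proteins of the TARP family (the Cacng genes) and the cornichon family (the Cnih genes). Auxiliary proteins set how many receptors reach the surface, how they are anchored at the synapse and how slowly the channel closes. The subunit mixture sets calcium entry: receptors that contain the edited form of the Gria2 product pass almost no calcium. In forebrain neurons, receptors of the Gria1 and Gria2 products are known as the most abundant type.

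The site that this editing changes lies in the pore loop, and all 4 subunit genes carry a glutamine codon there in the genome. The last 60 bases of the pore-loop exon are given in transcript sense, because the editing of this codon in Gria2 transcripts sets its product apart from the other subunits. The capitals mark the codon, and the segments were read from GENCODE transcripts of GRCm38 at chr11:57243060-57243119 (plus strand) for Gria1, chr3:80706888-80706947 (minus strand) for Gria2, chrX:41610231-41610290 (plus strand) for Gria3 and chr9:4464114-4464173 (minus strand) for Gria4.
Gria1: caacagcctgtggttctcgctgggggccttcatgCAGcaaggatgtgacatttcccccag
Gria2: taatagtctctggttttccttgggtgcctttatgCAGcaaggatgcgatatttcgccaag
Gria3: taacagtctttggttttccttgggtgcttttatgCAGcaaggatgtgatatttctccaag
Gria4: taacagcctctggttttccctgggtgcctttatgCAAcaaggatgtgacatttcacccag
The Gria2 and Gria3 segments were the closest pair, with 5 differences in 60 bases, and the Gria1 segment differed from that of Gria2 at 13. Gene counts do not show the base at the edited position or the alternatively spliced forms of a subunit, so the values below are totals per gene.

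Library totals ran from 16091906 to 18630396 counts in the Psmb8 group, from 16055974 to 19640543 in the Psmb5 group and from 15337511 to 21074229 in the mSc group. The overexpressed transcripts stood in the groups that the labels name: Psmb8 was at 546 to 1056 CPM (the count of a gene relative to its library's total over the tested genes, scaled between libraries) in Psmb8 libraries and at most 19.4 CPM in the other 12, and Psmb5 was at 238 to 561 CPM in Psmb5 libraries and at most 51.1 CPM in the others. Markers of the labelled cells were present: 6 of 6 pan-neuronal, 8 of 8 excitatory and 10 of 11 inhibitory neuron markers were tested, while 1 of 7 microglia markers was. Of 8 vascular and fibroblast markers 5 were tested. The endothelial marker Pecam1 was among these 5, at a mean of 0.763 CPM, and the endothelial marker Cldn5 had 0 counts. All 8 astrocyte and all 8 oligodendrocyte lineage markers were tested too, so the cultures held glia. In such mixed cultures, fewer cells of a type and less RNA per cell cannot be told apart. Libraries with the same replicate number resembled each other across groups, and the number was used as a block in a second fit of every comparison. Whether libraries came from separate animals or dissections is not in the labels, so a p-value here reflects only how these libraries vary, and that variation may be technical.

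Among the pore-forming subunits, Gria1 (ENSMUSG00000020524, chromosome 11, 57011387 to 57330244, plus strand, GRCm38) and Gria2 (ENSMUSG00000033981, chromosome 3, 80681450 to 80802835, minus strand) stood far above Gria3 and Gria4. Divided by the summed length of a gene's annotated exons, mean levels over the 18 libraries were 73.5 ± 7.41 CPM per kb for Gria1 and 68.1 ± 7.36 CPM per kb for Gria2 (SD). The level of Gria3 (ENSMUSG00000001986, chromosome X, 41400854 to 41678601, plus strand) was 16.4 ± 3.35 CPM per kb, and that of Gria4 (ENSMUSG00000025892, chromosome 9, 4417896 to 4796234, minus strand) was 14.7 ± 1.24 CPM per kb. Of the summed level of the 4 subunit genes, Gria1 made up 42.6%, Gria2 39.5%, Gria3 9.41% and Gria4 8.54%. The order of the upper pair rests on the length used: Gria1 was above Gria2 in 14 of 18 libraries by exon length, but by the longest transcript the means were 102 CPM per kb for Gria2 and 80.0 CPM per kb for Gria1, and Gria2 was above Gria1 in all 18. The distance of the lower pair rests on it too. By exon length Gria3 was above Gria4 in 12 of 18 libraries and their ranges overlapped, while by the longest transcript Gria3 was at 31.0 CPM per kb and Gria4 at 17.02 CPM per kb, with no overlap. That Gria3 transcript has 11 exons, where the transcript used above for its pore loop has 16. The longest transcripts of Gria1, Gria2 and Gria4 have 16, 16 and 17 exons, so the Gria3 length comes from an unlike form. The shares by the longest transcript were 34.8% for Gria1, 44.4% for Gria2, 13.4% for Gria3 and 7.43% for Gria4.

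Among the auxiliary proteins, Cnih2 (ENSMUSG00000024873, chromosome 19, 5092868 to 5098521, minus strand), a cornichon that helps AMPA receptors leave the endoplasmic reticulum and slows their closing, had the highest level per length of all 9 genes at 155 ± 12.8 CPM per kb (SD over 18 libraries). Its level was 2.11 times that of Gria1, the next in order by exon length, and 1.55 times that of Gria2, the next by the longest transcript, with no overlap between the ranges in either case. Cacng8 (ENSMUSG00000053395, chromosome 7, 3390683 to 3415648, plus strand), the TARP that is most abundant in the hippocampus, was at 55.1 ± 10.6 CPM per kb. Cnih3 (ENSMUSG00000026514, chromosome 1, 181352628 to 181460641, plus strand), the other cornichon known to act on AMPA receptors, was at 52.6 ± 7.07 CPM per kb, and Cacng3 (ENSMUSG00000066189, chromosome 7, 122670492 to 122769393, plus strand), a TARP of the cerebral cortex, at 50.3 ± 4.35 CPM per kb. By exon length the ranges of these last 3 genes overlapped, with Cacng8 above Cnih3 in 9 of 18 libraries and Cnih3 above Cacng3 in 13. By the longest transcript Cacng8 was at 68.1 ± 13.1 CPM per kb and above Cnih3, at 54.3 ± 7.29 CPM per kb (SD over 18 libraries), in 17 of 18 libraries. Cacng2 (ENSMUSG00000019146, chromosome 15, 77991748 to 78120028, minus strand), which encodes stargazin, the TARP first found through an ataxic mouse, was lower at 19.2 ± 1.59 CPM per kb, and its range did not overlap that of Cacng3. It was above Gria3 in 16 of 18 libraries by exon length and below it in all 18 by the longest transcript.

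Some of these totals may include reads of neighbours, since no source used here gives the strand setting of the counting. Exons of Cacng2 overlap those of the antisense gene A730060N03Rik, which had 1112 counts over all libraries against 33789 for Cacng2. Exons of Cnih2 overlap those of Yif1a on the opposite strand, which had 5920 counts against 67728 for Cnih2. Of all 50-base windows in the exons of Cacng2, 5.86% occur in another gene as well, and the share was at most 1.83% for the other 8 genes.

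**Figure D1:**
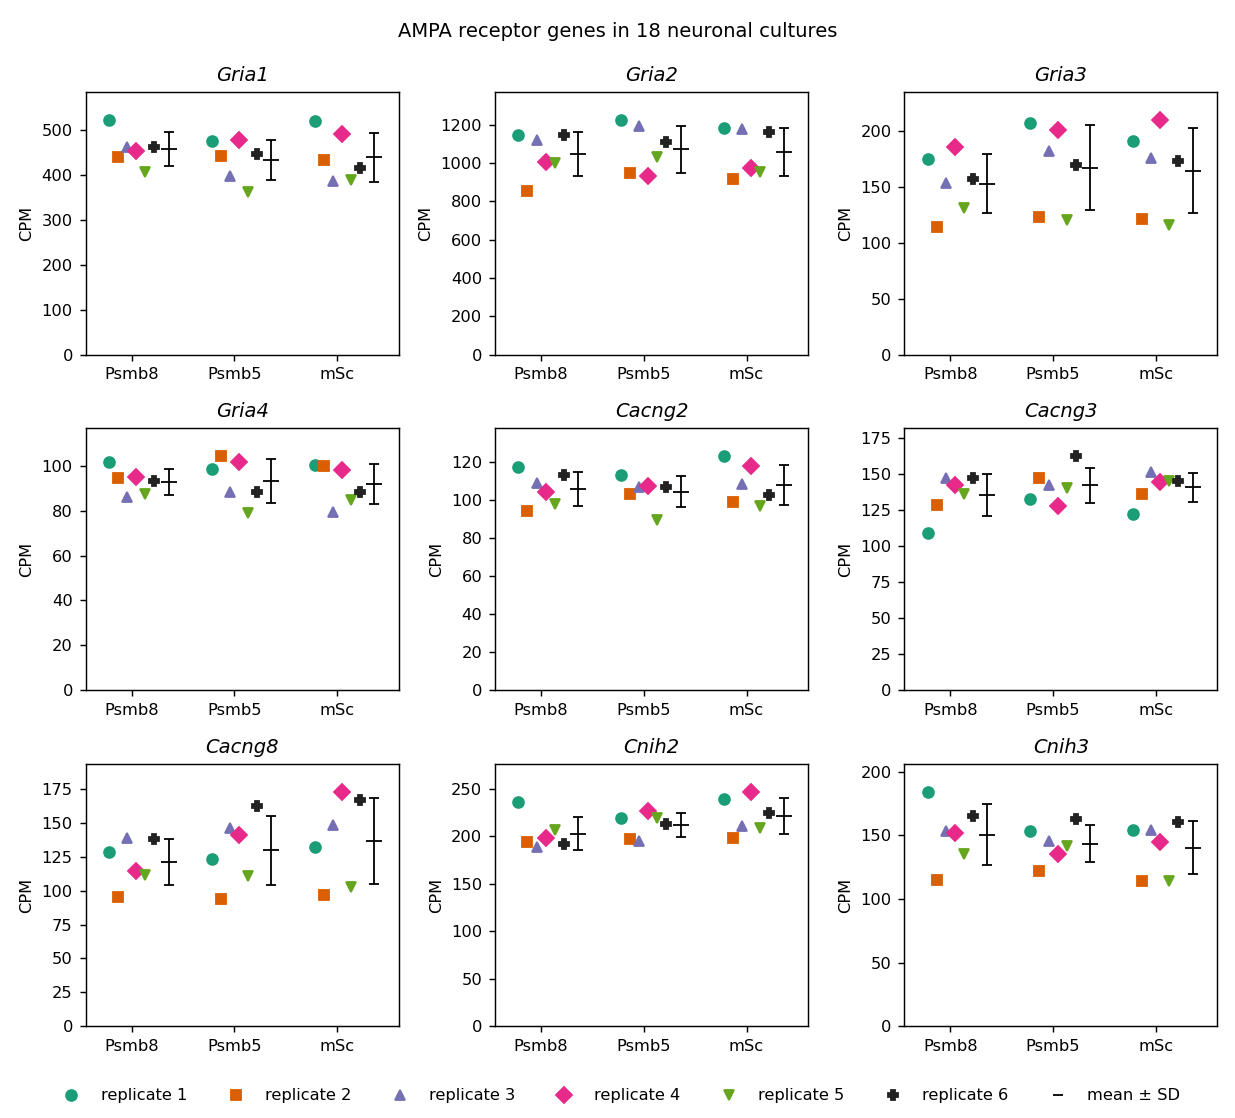
Level of each AMPA receptor gene (CPM, from 0) in the 18 cultures, by group; each marker is 1 library, its shape and colour give the replicate number, and the bar is the mean with the SD of 6 libraries. The groups overlap for all 9 genes, and the same replicate numbers sit high or low in each group, such as replicates 2 and 5 at the bottom for Gria3.

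In Psmb8 cultures, none of the 9 genes was called against mSc cultures at an adjusted p under 0.05 (edgeR quasi-likelihood test, Benjamini-Hochberg over 15671 genes). The background was low as well: 0.00638% of all tested genes were called in this comparison. With the replicate number as a block, 0.325% of all tested genes were called, 0.211% lower and 0.115% higher, and still none of the 9. The median log2 fold change of the 9 genes was -0.03, against 0.00045 over all tested genes, and 6 of the 9 were below 0. For no gene of the 9 were the 6 Psmb8 libraries separated from the 6 mSc libraries, as they were for 0.121% of all tested genes.

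Gria1 had a lowest, median and highest value of 408, 458 and 522 CPM in Psmb8 cultures, against 387, 425 and 520.0 CPM in mSc cultures. Its product is the subunit that is inserted at synapses during long-term potentiation. The Psmb8 value was the higher one in 5 of 6 same-numbered pairs, and the log2 fold change with the block was 0.06 (SE 0.04, edgeR adjusted p = 0.619).

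Gria2 values were 853, 1061 and 1148 CPM in Psmb8 cultures (lowest, median and highest), against 914, 1067 and 1181 CPM in mSc cultures. The groups covered nearly the same range, and the log2 fold change with the block was -0.02 (SE 0.04). Of its same-numbered pairs, 4 of 6 were lower in Psmb8 cultures.

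Gria3, whose product pairs mainly with that of Gria2, had values of 114, 155 and 185 CPM in Psmb8 cultures against 115, 174 and 209 CPM in mSc cultures (lowest, median and highest). Psmb8 was the lower of the pair for 5 of 6 numbers, the exception being replicate 5. The log2 fold change with the block was -0.09 (SE 0.04, edgeR adjusted p = 0.472). Without replicate 5, the pair that went the other way, it was -0.14 (adjusted p = 0.146). Without each other number it lay between -0.09 and -0.07 (adjusted p from 0.540 to 0.735). Gria4, the subunit with a known place in inhibitory interneurons, averaged 92.9 ± 5.77 CPM in Psmb8 cultures and 91.8 ± 8.90 CPM in mSc cultures (SD, n = 6 each). Its log2 fold change with the block was 0.02 (SE 0.04).

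Cnih2 was the member with the smallest p in this comparison. Its lowest, median and highest values were 189, 196 and 236 CPM in Psmb8 cultures, against 199, 218 and 247 CPM in mSc cultures. The Psmb8 value was the lower one in all 6 same-numbered pairs, with log2 differences from -0.32 in replicate 4 to -0.01 in replicate 5, while the ranges of the groups overlapped. Of all tested genes, 5.67% moved 1 way in all 6 pairs and 2.5% were lower in all 6. The log2 fold change was -0.13 (SE 0.07) without the block and -0.13 (SE 0.04) with it, where the edgeR adjusted p was 0.220. With the block, the 95% interval of the difference reached from -13.7% to -2.87%.

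Cacng8 had values of 95.6, 122 and 139 CPM in Psmb8 cultures against 96.7, 140.1 and 173 CPM in mSc cultures (lowest, median and highest). Psmb8 was the lower one in 5 of 6 pairs, and replicate 4 stood apart, at 115 CPM in the Psmb8 library and 173 CPM in the mSc library. The log2 fold change with the block was -0.15 (SE 0.06, edgeR adjusted p = 0.349), and without replicate 4 it was -0.06 (adjusted p = 0.689). Leaving out replicate 4 gave -0.09 for Cnih2 (edgeR adjusted p = 0.443). Replicate 4 held the most negative pair of both genes, at -0.59 for Cacng8 and -0.32 for Cnih2. Smaller differences without it thus follow from which number was left out.

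Cnih3 lay the other way, with values of 115, 152 and 184 CPM in Psmb8 cultures and 114, 149.6 and 160.3 CPM in mSc cultures. It was higher in 5 of 6 pairs, most so in replicates 1 and 5, and the log2 fold change with the block was 0.10 (SE 0.05, edgeR adjusted p = 0.458). Cacng2 averaged 105.8 ± 8.95 CPM in Psmb8 cultures and 107.9 ± 10.5 CPM in mSc cultures, and Cacng3 averaged 135 ± 14.6 CPM in Psmb8 cultures and 141 ± 10.3 CPM in mSc cultures (SD, n = 6 each). Their log2 fold changes with the block were -0.03 (SE 0.04) and -0.06 (SE 0.05).

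Counted at an unadjusted p under 0.05, no member passed without the block, where 2.17% of all tested genes did. With the block 3 of 9 passed, Cacng8 and Cnih2 lower and Cnih3 higher, where 10.7% of all tested genes did, 5.25% lower and 5.44% higher. The intervals of the 9 genes with the block ran from -17.4% (Cacng8) to 14.9% (Cnih3). Inhibitory neuron markers lay mostly above 0 beside these values: 9 of 10 tested markers had a log2 fold change above 0 with the block, with a median of 0.26, and none was called in that fit. Their summed level ran from 727 to 1274 CPM in Psmb8 cultures and from 592 to 967 CPM in mSc cultures. Its median was the lower one in Psmb8 cultures, 772 CPM against 801 CPM in mSc cultures, and the 1274 CPM came from replicate 1. The part of this level in the AMPA receptor values was not tested.

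**Figure D2:**
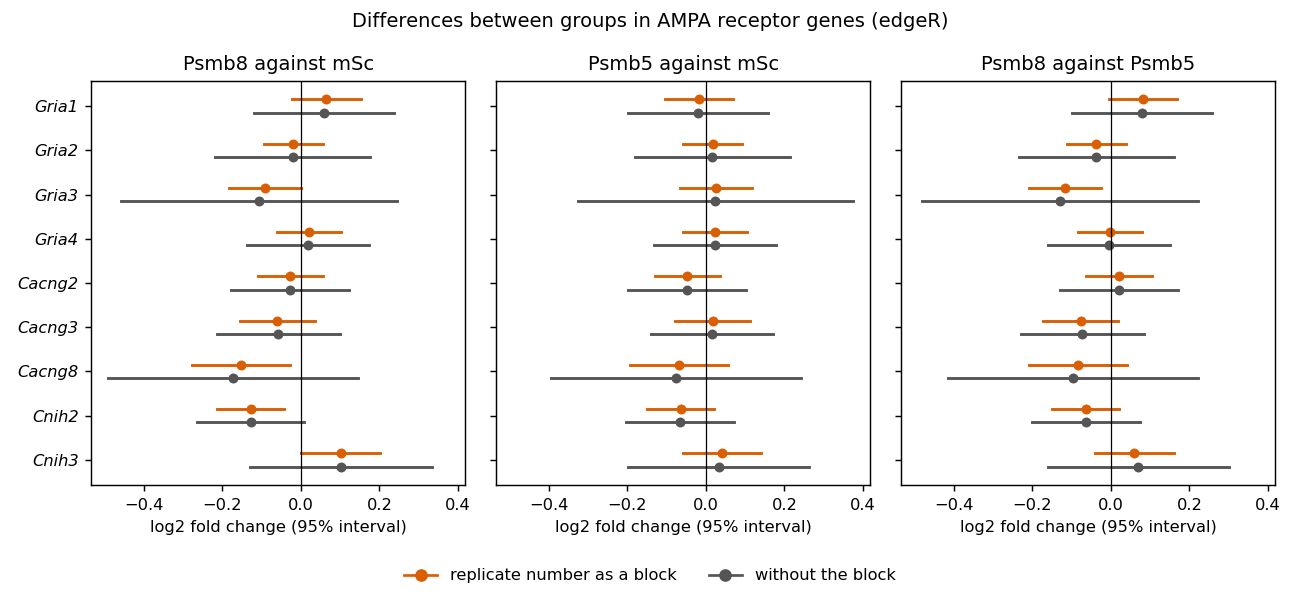
Log2 fold change of each AMPA receptor gene with its 95% interval in the 3 comparisons, from edgeR with the replicate number as a block (orange) and without it (grey). With the block the intervals lie between -0.28 and 0.20, and those of Cacng8, Cnih2 and Cnih3 (Psmb8 against mSc) and of Gria3 (Psmb8 against Psmb5) leave out 0; no gene was called after adjustment.

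In Psmb5 cultures, none of the 9 genes was called against mSc cultures with or without the block, where 0.00638% of all tested genes were called in either fit. The median log2 fold change of the 9 genes was 0.02, against 0.00089 over all tested genes, and 4 of the 9 were below 0. None of the 9 had an unadjusted p under 0.05 with the block, where 6.87% of all tested genes did, or without it, where 0.944% did. None moved the same way in all 6 pairs, where 4.24% did, and the 6 Psmb5 libraries were separated from the 6 mSc libraries for no member and for 0.0319% of all tested genes.

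Among the subunits, Gria1 averaged 434 ± 45.1 CPM in Psmb5 cultures and 439.7 ± 54.7 CPM in mSc cultures, and Gria2 averaged 1072 ± 123 CPM in Psmb5 cultures and 1059.7 ± 125 CPM in mSc cultures (SD, n = 6 each). Gria3 averaged 167 ± 37.9 CPM in Psmb5 cultures and 164 ± 37.9 CPM in mSc cultures, and Gria4 averaged 93.2 ± 9.74 CPM in Psmb5 cultures and 91.8 ± 8.90 CPM in mSc cultures. All 4 differences were smaller than the spread between libraries of a group, which includes the differences between replicate numbers. With the block, which takes these out, the 4 log2 fold changes lay between -0.02 and 0.03 (SE 0.04 each).

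Among the auxiliary proteins, Cnih2 averaged 212 ± 12.8 CPM in Psmb5 cultures and 221 ± 18.7 CPM in mSc cultures, and was lower in 5 of 6 pairs. Its log2 fold change with the block was -0.06 (SE 0.04, edgeR adjusted p = 0.803). Cacng8 averaged 129.7 ± 25.2 CPM in Psmb5 cultures and 137 ± 32.0 CPM in mSc cultures, and was also lower in 5 of 6 pairs (log2 fold change -0.07, SE 0.06). Cnih3 averaged 144 ± 14.4 CPM in Psmb5 cultures and 140.3 ± 21.0 CPM in mSc cultures. Cacng2 averaged 104 ± 7.93 CPM in Psmb5 cultures and 108 ± 10.5 CPM in mSc cultures. Cacng3 averaged 142 ± 12.1 CPM in Psmb5 cultures and 141 ± 10.3 CPM in mSc cultures. Their log2 fold changes with the block were -0.05 (SE 0.04) for Cacng2 and 0.02 (SE 0.05) for Cacng3. With the block, the 95% intervals of the 9 genes of the difference ran from -12.4% to 10.2%. This comparison and the one before it share the mSc libraries, so their values are not independent.

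Set directly against Psmb5 cultures, Psmb8 cultures had no called gene among the 9, with or without the block. Of all tested genes, 0.0128% were called without the block and 0.0383% with it. The median log2 fold change of the 9 was -0.04, against 0.00065 over all tested genes. Gria3 had the smallest p: its lowest, median and highest values were 114, 155 and 185 CPM in Psmb8 cultures and 120.1, 176 and 207 CPM in Psmb5 cultures. It was lower in 5 of 6 pairs, and the log2 fold change with the block was -0.12 (SE 0.04, edgeR adjusted p = 0.533). The 95% interval of the difference reached from -13.4% to -1.76%. Gria3 was the 1 member with an unadjusted p under 0.05 with the block, where 7.64% of all tested genes had one and 3.91% were lower with one; without the block no member had one, where 1.33% of all tested genes did. No member's libraries separated the groups, as those of 0.0893% of all tested genes did, and no member moved 1 way in all 6 pairs, where 4.53% did. Gria1 was at 0.08 (SE 0.04), with an interval from -0.345% to 12.4%, and the other 7 genes lay between -0.08 and 0.06.

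The make-up of the subunit pool was compared between the 3 groups by exon length. Gria1 made up 43.8% ± 1.84 of the summed level per length of the 4 subunit genes in Psmb8 cultures, 41.6% ± 2.92 in Psmb5 cultures and 42.3% ± 3.11 in mSc cultures (SD, n = 6 each). Gria2 made up 38.8% ± 2.14 in Psmb8 cultures, 40.0% ± 3.78 in Psmb5 cultures and 39.7% ± 3.66 in mSc cultures. Gria3 made up 8.89% ± 1.09 in Psmb8 cultures, 9.74% ± 1.597 in Psmb5 cultures and 9.59% ± 1.58 in mSc cultures. The Gria3 share was lower in Psmb8 cultures in 5 of 6 same-numbered pairs against mSc cultures (mean difference -0.70 ± 0.81 percentage points, SD) and in 5 of 6 against Psmb5 cultures (-0.84 ± 0.84 percentage points). Gria4 lay between 8.49% and 8.59% in all 3 groups, and no test was made on the shares.

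Replicate numbers separated the AMPA receptor genes more than the groups did. All 9 genes differed between numbers (edgeR quasi-likelihood test of the number term, adjusted p from 3.6e-09 for Gria3 to 0.0069 for Cnih2), as did 64.3% of all tested genes. Gria3 varied most, averaging 198 ± 12.2 CPM in the 3 libraries of replicate 4 and 119 ± 4.45 CPM in those of replicate 2, a ratio of 1.66 (SD, n = 3 each). Between groups, the highest mean of Gria3 was 1.09 times the lowest. The number accounted for 93.0% of the variance of its log2 CPM and the group for 2.77%, where the medians over 10057 genes at 10 CPM or more were 71.5% and 4.23%.

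Cacng8 had the next largest ratio, 1.63, with 156 ± 15.4 CPM in replicate 6 and 95.4 ± 1.38 CPM in replicate 2. Cnih3 averaged 164 ± 17.4 CPM in replicate 1 and 117 ± 4.15 CPM in replicate 2, and Gria2 averaged 1183 ± 37.7 CPM in replicate 1 and 906 ± 48.8 CPM in replicate 2. Replicate 2 was thus the lowest for 5 of the 9 genes, Cnih2 and Gria3 included, and replicate 5 was the lowest for Gria1, Gria4 and Cacng2. Cacng3 was the 1 member with its lowest mean in replicate 1 (122 ± 11.8 CPM), and its highest was in replicate 6 (152 ± 9.41 CPM), as for Cacng8. Cnih2 varied least between numbers, with a ratio of 1.18, and had the largest share of its variance on the group among the 9 genes, 21.1%.

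Markers moved with the numbers too. The summed level of 8 astrocyte markers was 4178 to 4979 CPM in the libraries of replicate 1 and 1298 to 1877 CPM in the other 15. The summed level of 8 oligodendrocyte lineage markers was 235 to 435 CPM in replicates 3 and 6 and 558 to 1094 CPM in the other replicates. That of 8 excitatory neuron markers was 2468 to 3126 CPM in replicates 1 and 4, where Gria3 was highest, and 2042 to 2335 CPM in the others. Their part in the AMPA receptor values was not tested.

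**Figure D3:**
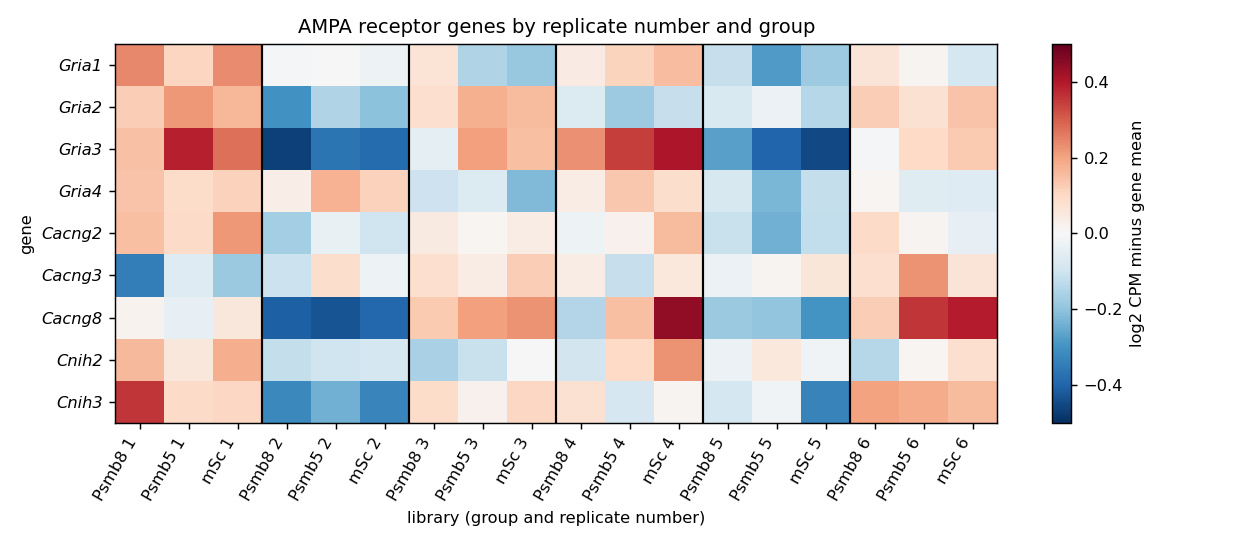
Log2 CPM of each AMPA receptor gene minus its mean over 18 libraries (red higher, blue lower), with libraries in blocks of replicate number 1 to 6 and ordered Psmb8, Psmb5, mSc within a block. Columns of a block resemble each other: Gria3 is low in all libraries of replicates 2 and 5 and Cacng8 in those of replicate 2.

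The members followed each other across libraries in part. Over the 36 pairs of members, Pearson's r of log2 CPM over 18 libraries ran from -0.52 (Gria1 and Cacng3) to 0.81 (Gria2 and Cnih3), with a median of 0.38, and 27 pairs were positive. The libraries share replicate numbers, and after the mean of each number was taken out the median was -0.0043. Cacng8 and Cnih2 then had the highest value of the 36 pairs, 0.90, with the differences between groups left in. Both genes had their largest difference between Psmb8 and mSc in replicate 4, and no test was made.

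Among genes at 10 CPM or more, the gene most like Gria1 over the 18 libraries was Tmco3 (r = 0.91), and those most like Gria2, Gria3 and Gria4 were Ank2, the ankyrin of axons (0.96), Phactr1, an actin and phosphatase regulator (0.95), and Olfm3 (0.90). For the TARPs, Gabbr1, a subunit of the metabotropic GABA receptor, was the most like Cacng2 (0.92), Meaf6, part of histone acetyltransferase complexes, the most like Cacng3 (0.85), and Asic2, an acid-sensing ion channel, the most like Cacng8 (0.95). For the cornichons these were the adrenergic receptor gene Adra1d for Cnih2 (0.84) and Ppm1h, a protein phosphatase, for Cnih3 (0.95). These r are descriptions over libraries that share numbers, and no test was made.

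No gene of the wider AMPA receptor pathway was called by edgeR with its filter on low counts, in the fits of all 18 libraries with or without the block. Of the 15 other genes of auxiliary subunits, 6 genes of receptor assembly in the endoplasmic reticulum, 14 of scaffolds and trafficking, 10 of synaptic clustering and plasticity and 2 of RNA editing, all were tested, and none passed in these fits in any of the 3 comparisons. With the block and Psmb8 set against mSc, median log2 fold changes were 0.04 for the other auxiliary subunits (9 of 15 above 0), -0.02 for assembly (2 of 6), 0.02 for scaffolds (9 of 14), -0.04 for clustering (3 of 10) and -0.04 for editing (0 of 2), against 0.00081 over all tested genes. In the same fit Gsg1l, an auxiliary subunit that slows recovery of the channel, was at a log2 fold change of -0.27 (SE 0.07, edgeR adjusted p = 0.122), and DESeq2 with the block called it (-0.27, adjusted p = 0.0246). DESeq2 with the block also called Camk2a, the kinase of long-term potentiation (-0.16, adjusted p = 0.0046). Cpt1c, which takes part in receptor assembly, was at -0.16 (SE 0.05, adjusted p = 0.235), and the scaffold gene Grip1, whose product binds the Gria2 and Gria3 subunits, at 0.08 (SE 0.04, adjusted p = 0.461). Adarb1, which encodes the enzyme that edits the Gria2 codon shown above, was at -0.05 (SE 0.04, adjusted p = 0.688).

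In the other comparisons the genes with the smallest p of these lists, all with the block, were as follows. In Psmb5 against mSc cultures, Gsg1l was at -0.19 (SE 0.07) and Cpt1c at -0.14 (SE 0.05), each with an edgeR adjusted p of 0.624. Gripap1, which binds the scaffold Grip1, was at 0.08 (SE 0.03, adjusted p = 0.640), Camk2a at -0.10 (SE 0.04, adjusted p = 0.629) and Adarb1 at -0.03 (SE 0.04, adjusted p = 0.891). In Psmb8 against Psmb5 cultures, the TARP gene Cacng5 was at 0.23 (SE 0.10), Abhd6, which holds back receptor assembly, at 0.10 (SE 0.05) and Grip2 at 0.11 (SE 0.05), with edgeR adjusted p of 0.605 for Cacng5, 0.647 for Abhd6 and 0.644 for Grip2. Nptx1, a pentraxin that clusters AMPA receptors, was at 0.14 (SE 0.05, adjusted p = 0.401) and Adar at -0.02 (SE 0.03, adjusted p = 0.947).

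Among the other ionotropic glutamate receptors, Grin1, the subunit that every NMDA receptor needs, fell in Psmb8 cultures in the fit with the block (log2 fold change -0.33, SE 0.05, edgeR adjusted p = 0.0060), and was not called without it (log2 fold change -0.33, SE 0.11, adjusted p = 0.9999). It was the 1 gene called of 7 NMDA receptor genes, against 0.325% of all tested genes. Its lowest, median and highest values were 560.1, 713 and 759 CPM in Psmb8 cultures and 682, 899 and 958 CPM in mSc cultures, and the Psmb8 value was lower in all 6 pairs. The call of Grin1 was lost without replicate 3 (-0.33, adjusted p = 0.0591), and held without each other number (adjusted p from 0.0023 to 0.042). Of 7 kainate receptor genes none was called, and Neto2, a kainate receptor auxiliary protein, was at 0.18 (SE 0.05, adjusted p = 0.123). Of 2 delta receptor genes none was called, and Grid1 was at -0.05 (SE 0.04, adjusted p = 0.706). None of these 3 lists had a called gene in the other comparisons in these fits. In Psmb5 against mSc cultures, Grin1 was at -0.16 (SE 0.05, adjusted p = 0.621) and Grik5, a kainate receptor subunit, at -0.09 (SE 0.04, adjusted p = 0.675). In Psmb8 against Psmb5 cultures, Grin1 was at -0.18 (SE 0.05, adjusted p = 0.369), Neto2 at 0.14 (SE 0.05, adjusted p = 0.485) and Grid1 at -0.06 (SE 0.04, adjusted p = 0.786).

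**Figure D4:**
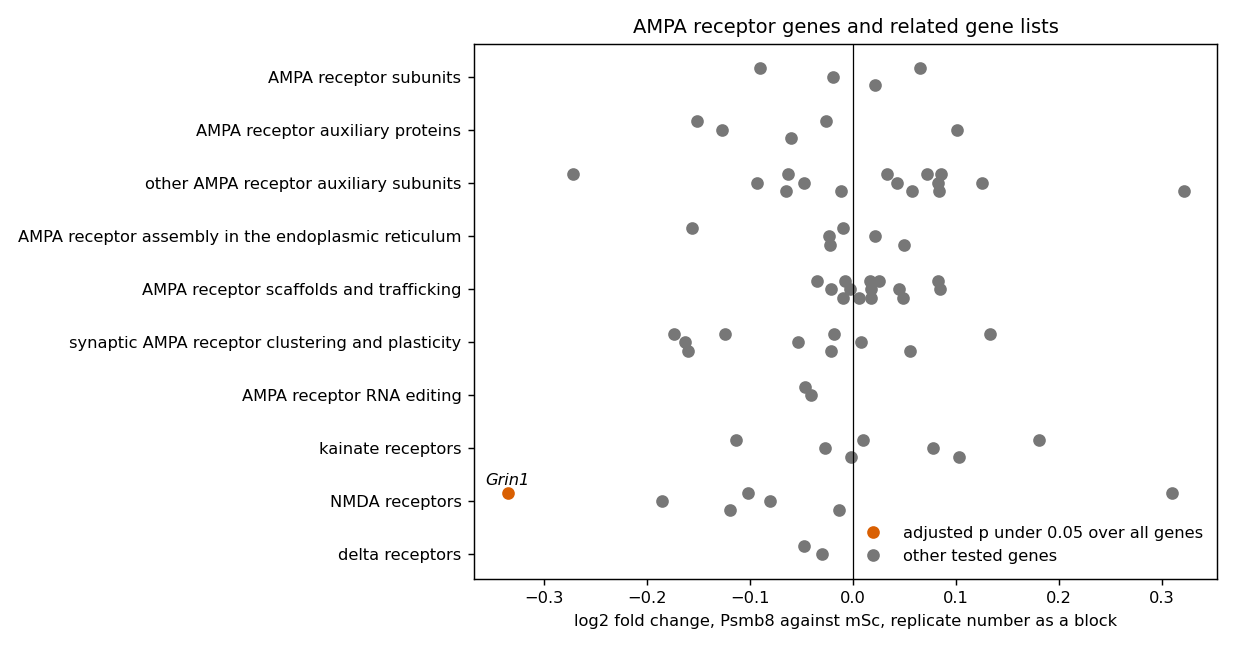
Log2 fold change of Psmb8 against mSc cultures (horizontal axis, replicate number as a block) for each tested gene of the AMPA receptor lists and of the kainate, NMDA and delta receptor lists; each point is 1 gene. Grin1, at -0.33, is the 1 gene called in this fit; the 9 AMPA receptor genes in the upper rows lie between -0.15 and 0.10.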

How the data were processed

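The deposited values are raw counts, 1 column for each library and 1 row for each of 43629 Ensembl genes. STAR 2.4, DESeq2, GRCm39 and mm10 are named in the submitters' processing notes, with no role. How reads were counted (tool, strand, multi-mapping reads, annotation release) is not given in the sources used here. Coordinates, exon lengths and sequences came from GENCODE's annotation of GRCm38, so lengths may differ from those of the counting.

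Counts were fitted in edgeR 4.0.16 (R 4.3.3) over all 18 libraries: filterByExpr by group kept 15671 of 43629 genes, TMM scaled the libraries, and the quasi-likelihood test compared groups with Benjamini-Hochberg adjustment over all tested genes at 0.05. Standard errors and 95% intervals were derived from the F statistic. CPM are TMM-scaled over tested genes. At the lowest count of a member, 1401, counting error alone gives a coefficient of variation of 2.67%. Libraries of a group differed by more than counting error in all 45 pairs (chi-square per degree of freedom 2.94 to 38.4). The fits were also run on simulated counts with changes set in advance, as a check of the code. The outcome is not given here, and no result above rests on it.

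The groups share replicate numbers, whose meaning the labels do not give. In all 18 same-numbered pairs between groups, deviations from the group means correlated (r from 0.45 to 0.73, mean 0.60). Over 90 other pairs the mean was -0.12, and the range, from -0.54 to 0.65, overlapped that of the same-numbered pairs. On these means the numbers were taken to pair the libraries. With the number as a block, edgeR's common coefficient of biological variation was 5.94%, against 17.9% without it.

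The members, gene lists and marker lists were chosen with earlier results of these data known. Named genes are the 9 members, called genes of a list or otherwise its member with the smallest p, the 1 gene most correlated with each member, and Psmb5 and Psmb8. Some genes that this rule names are not reported here. Alternatives were DESeq2 1.42.0, limma-voom (limma 3.58.1), other scalings and filters, fits of only the groups compared, left-out libraries and the block.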

Additional observations from a re-analysis of the deposited data

Results flagged for a closer look

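In each of the 27 sets of 6 values (9 AMPA receptor genes in 3 groups), the gap of the highest or lowest library to its nearest neighbour was set against the range of the set, and 0 of the 27 passed Dixon's critical value for 6 samples.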

How the results depend on the processing

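No AMPA receptor gene was called in any comparison under any setting but one: with the replicate block and no filter on low counts, 1 member was called in Psmb8 against mSc cultures, Cacng8 at -0.16 (edgeR adjusted p = 0.0254). With the filter kept and each number left out of the blocked fit, its adjusted p ran from 0.232 to 0.689. No number was left out of the fit with no filter, so how that call depends on single numbers was not tested. The counts of all genes called moved more. With the replicate block they were 51 for Psmb8 against mSc and 6 for Psmb8 against Psmb5, against 1 and 2 without it, and DESeq2 without the block called 2 for Psmb8 against mSc. Within the blocked fit, Psmb8 against mSc gave 24 with only the groups compared, 136 with DESeq2, 62 with limma-voom, 56 with DESeq2's size factors and 321 with no filter. Psmb5 against mSc gave 2, 13 and 140 with only the groups compared, DESeq2 and no filter. Psmb8 against Psmb5 gave 16, 27, 7, 6 and 166 in the order of the settings named for Psmb8 against mSc. The cause was not tested. With the filter on low counts kept, the block changed no call of a member. Without that filter, Cacng8 was called with the block only.

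Leaving out 1 replicate at a time, with or without the block, gave 1 to 59 called genes for Psmb8 against mSc, 1 to 3 for Psmb5 against mSc and 2 to 20 for Psmb8 against Psmb5. The members that differed between numbers were 7 without replicate 1 and 9 without any other number. With all numbers kept, 64.3% of all tested genes differed. The share with a number left out is not given here, so the 7 and the 9 have no matching background. The median log2 fold change of the members in Psmb5 against mSc ran from -0.051 to 0.032. Signs near 0 turned with the library or number left out: for Psmb5 against mSc, Gria1 ran from -0.053 to 0.032, Gria2 from -0.024 to 0.054, Gria3 from -0.059 to 0.11, Gria4 from -0.015 to 0.068, Cacng3 from -0.026 to 0.053, Cacng8 from -0.16 to 0.0036 and Cnih3 from -0.021 to 0.076. For Psmb8 against mSc, Gria2 ran from -0.060 to 0.032, Gria4 from -0.021 to 0.044 and Cacng2 from -0.061 to 0.012, and for Psmb8 against Psmb5, Gria2 from -0.075 to 0.015, Gria4 from -0.050 to 0.029 and Cacng2 from -0.019 to 0.053. The other genes that turned were Adarb1 (-0.068 to 0.012), Gfap (-0.39 to 0.76), Mog (-0.24 to 0.040) and Snap25 (-0.011 to 0.11) in Psmb5 against mSc, Grid1 (-0.092 to 0.00098), Gfap (-0.77 to 0.41) and Rgs5 (-0.16 to 1.27) in Psmb8 against mSc, and Adar (-0.065 to 0.013), Aif1 (-0.30 to 0.12) and Gfap (-0.87 to 0.14) in Psmb8 against Psmb5. None of these genes was called with a library or number left out.

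Other named genes were called under some settings of the blocked fit. With no filter on low counts, edgeR called Gsg1l, Cpt1c, Camk2a, Neto2, Vip, Gfap and Rgs5 for Psmb8 against mSc (adjusted p from 2.99e-05 to 0.0352), Gsg1l, Grin1 and Gfap for Psmb5 against mSc (0.0028 to 0.0408) and Grin1, Nrgn, Sst and Gfap for Psmb8 against Psmb5 (7.79e-29 to 0.0105). With the filter kept, the same blocked fit called none of these genes in these comparisons. The fold changes were nearly the same: for Psmb8 against Psmb5, Sst was at 0.50 and Gfap at -0.35 either way. The smaller p thus came with the filter setting and not with a larger difference, and its cause was not tested. Gsg1l and Camk2a were also called by DESeq2 for Psmb8 against mSc, and Camk2a without replicate 5 (adjusted p = 0.0286). Vip was called by limma-voom, with only the groups compared and without replicate 4 (0.0415 to 0.0479). For Psmb8 against Psmb5, Gfap was called with only the groups compared (adjusted p = 0.0227) and Sst without replicate 4 (0.0086). Grin1 was called for Psmb8 against mSc under every other setting of the blocked fit except without replicate 3 and without both replicates 3 and 6.

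A blocked fit without replicates 3 and 6 was added after the data were seen, because interferon-stimulated genes were high there. It called 2, 2 and 4 genes for Psmb8 against mSc, Psmb5 against mSc and Psmb8 against Psmb5, and neither a member nor Grin1 was among them. In it Gria1 stood at -0.0084 and Gria4 at -0.019 for Psmb8 against mSc, and Gria4 at -0.0085 for Psmb5 against mSc, each the other side of 0 from the full fit. Cnih2 stood at -0.097 and Cacng8 at -0.14 for Psmb8 against mSc. Counting error alone gave these genes a coefficient of variation of at most 2.67% (Gria4). The common coefficient of biological variation over all tested genes was 5.94% with the block. The part of depth was not tested.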

Other observations

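Markers of the cell types in the cultures gave the surroundings in which the AMPA receptor genes were measured, all from the fit with the replicate block. None of the 7 marker lists had a called gene in this fit in any comparison; other settings called Vip, Camk2a, Sst, Nrgn, Gfap and Rgs5. In Psmb8 against mSc cultures, the interneuron peptide gene Vip was at a log2 fold change of 0.44 (SE 0.10, edgeR adjusted p = 0.056) and the excitatory neuron kinase gene Camk2a at -0.16 (SE 0.04, adjusted p = 0.0870). The neuronal tubulin gene Tubb3 was at 0.13 (SE 0.04, adjusted p = 0.206), the astrocyte filament gene Gfap at -0.18 (SE 0.09, adjusted p = 0.460), the microglia gene Aif1 at -0.40 (SE 0.21) and the pericyte gene Rgs5 at 0.66 (SE 0.26, adjusted p = 0.352).

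In Psmb8 against Psmb5 cultures, all 10 tested inhibitory neuron markers had log2 fold changes above 0 (median 0.26), and the peptide gene Sst was at 0.50 (SE 0.11, edgeR adjusted p = 0.116). All 8 astrocyte markers and all 8 oligodendrocyte lineage markers were below 0, with medians of -0.14 and -0.097. Gfap was at -0.35 (SE 0.09, adjusted p = 0.225), and Nrgn, which encodes a calmodulin-binding protein of excitatory neurons, at -0.15 (SE 0.05, adjusted p = 0.386). In Psmb5 against mSc cultures, Vip was at 0.24 (SE 0.10), Gfap at 0.16 (SE 0.09), Snap25 at 0.04 (SE 0.04), Mog at -0.12 (SE 0.11), Aif1 at -0.31 (SE 0.21) and Col1a1 at -0.44 (SE 0.22).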
